A study of Mus musculus with 6 samples.

Results

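The genes described here encode the microtubule motors kinesin and cytoplasmic dynein, the light chains of kinesin-1, the dynactin complex and the Hook and Bicd adaptors. Members were chosen by gene symbol alone, as Kif and Kifc motors, Klc1 to Klc4, subunits of cytoplasmic dynein 1 and 2 (Dync1 and Dync2), Dctn1 to Dctn6, Hook1 to Hook3, and Bicd1 and Bicd2. The rule found 62 genes of the 23038 listed in each library, 40 of them kinesin heavy chains. Dynein light chains, the Arp1 filament of dynactin and other cargo adaptors carry other symbols and are treated near the end as a separate list.

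Messenger RNA had been sequenced from NSC-34 cells, a mouse line obtained by fusion of a neuroblastoma with motor neurons of the embryonic spinal cord. Cells received either control siRNA (siNC, 3 libraries) or siRNA against Qk (siQk, 3 libraries), and were collected 72 h after transfection. Qk encodes the Quaking (Qki) RNA-binding proteins, which regulate splicing, stability and localisation of their target RNAs. The study used 3 different siRNAs against Qk in 3 independent cultures, and the labels do not tell which library received which, so the siQk libraries may each carry the off-target effects of a different siRNA. The labels name no other treatment or genetic change in either group, and all libraries come from 1 cell line.

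Kinesins and dynein walk on microtubules, most kinesins towards the plus end and dynein towards the minus end. In a motor neuron axon, whose plus ends point away from the cell body, kinesin-1, kinesin-2 and kinesin-3 carry vesicles, mitochondria and neurofilaments outward, and dynein with dynactin and an activating adaptor carries endosomes and injury signals back. In a dividing cell other kinesins build the spindle, move chromosomes and complete cytokinesis, so a cycling neuron-like line can hold both sets. Inherited changes in KIF5A, KIF1A, KIF1B, KIF1C, DYNC1H1, DCTN1 and BICD2 are known from human motor neuron and axon diseases, and KIF21A from a disorder of the oculomotor nerve.

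The comparison asked whether transcripts of the transport machinery changed in level when Qk was depleted. Library totals ran from 43000503 to 53565950 counts, and the members together took 0.613% to 0.657% of each. Levels below are RPKM, counts scaled to exon length and library total, as the authors deposited them. Fold changes give siQk over siNC on the log2 scale after scaling by the trimmed mean of M values (TMM), with a standard error (SE) from the spread between libraries, and p-values are those of the edgeR quasi-likelihood test with Benjamini-Hochberg adjustment over 12665 genes. The call of a change needed p under 0.01 together with adjusted p under 0.1. The groups are said not to overlap when all 3 values of one lie above all 3 of the other on the TMM-scaled log2 scale. The RNA comes from whole cultures, so fewer cells with a transcript and less of it in each cell cannot be told apart. Libraries siQk replicate 2 and siNC replicate 3 stood apart from the others, at the ends of the first and the second principal component (41.2% and 28.9% of the variance), and many fold changes near 0 moved by over 1.5 times, or turned sign, when a library was left out. For most such values the range over the 6 fits with 1 library left out, or the value without the libraries that decide it, is printed beside them or near the end.

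Qk itself measured 9.68, 8.18 and 14.9 RPKM in the siNC libraries and 1.39, 1.71 and 1.10 RPKM in the siQk libraries, a mean of 12.8% of control. Every library therefore lay on the side that its label gives. Qk fell by 2.997 on the log2 scale (SE 0.34), for which edgeR gave an adjusted p of 0.0149. It was the only gene called of 12665 tested, and without siNC replicate 1 its adjusted p was 0.125. The neuronal label was checked with markers: Tubb3, a neuronal tubulin, and Gap43, a growth cone protein, measured 269 ± 111 and 118 ± 19.1 RPKM in the controls (SD, n = 3), while Stmn2 had at most 2 counts. Of the defining motor neuron genes, Chat, Slc5a7 and Mnx1 were at or under 35 counts in every library and Lhx3 at or under 65. The vesicular acetylcholine transporter Slc18a3 was at 2.02 and 1.93 RPKM in siNC and siQk, and Isl2 was at 3.43 and 4.03 RPKM in siNC and siQk. Isl1, a transcription factor of motor neurons, was at 4.79 ± 0.0365 RPKM in siNC and 8.59 ± 0.937 RPKM in siQk without overlap, and its part in the values of the members was not tested. Aqp4 (astrocytes), Cx3cr1 and C1qa (microglia) were at 0 counts throughout, and Olig1, Olig2 and Col3a1 had at most 1 count.

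No member was called changed. Of the 62 members 56 passed the filter on low values, and the call was met by 0 of the 56 beside 0.0079% of all genes tested (1 member in DESeq2 and 0 in the edgeR exact test). At an unadjusted p under 0.05 there were 2 members of 56 (3.57%), Hook3 lower and Kif1a higher, beside 2.89% of all genes (1.69% lower and 1.2% higher). The fold change was above 0 for 31 members and below 0 for 25, with a median of 0.05 beside 0.0034 for all genes, and this median stayed between 0.0068 and 0.067 when any 1 library was left out. All values lay between -0.71 and 0.50 on the log2 scale. The groups did not overlap for 9 members (16.1%), beside 8.52% of all genes. Those lower in siQk were Hook3, Bicd2, Kif5a, Kif3c and Kif17 (5 members, background 4.07%), and those higher were Kif1a, Kif24, Dctn6 and Kif26b (4 members, background 4.45%). On the RPKM scale Bicd2 overlapped, while Kif15 and Dctn5 lay higher in siQk without overlap.

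**Figure D1:**
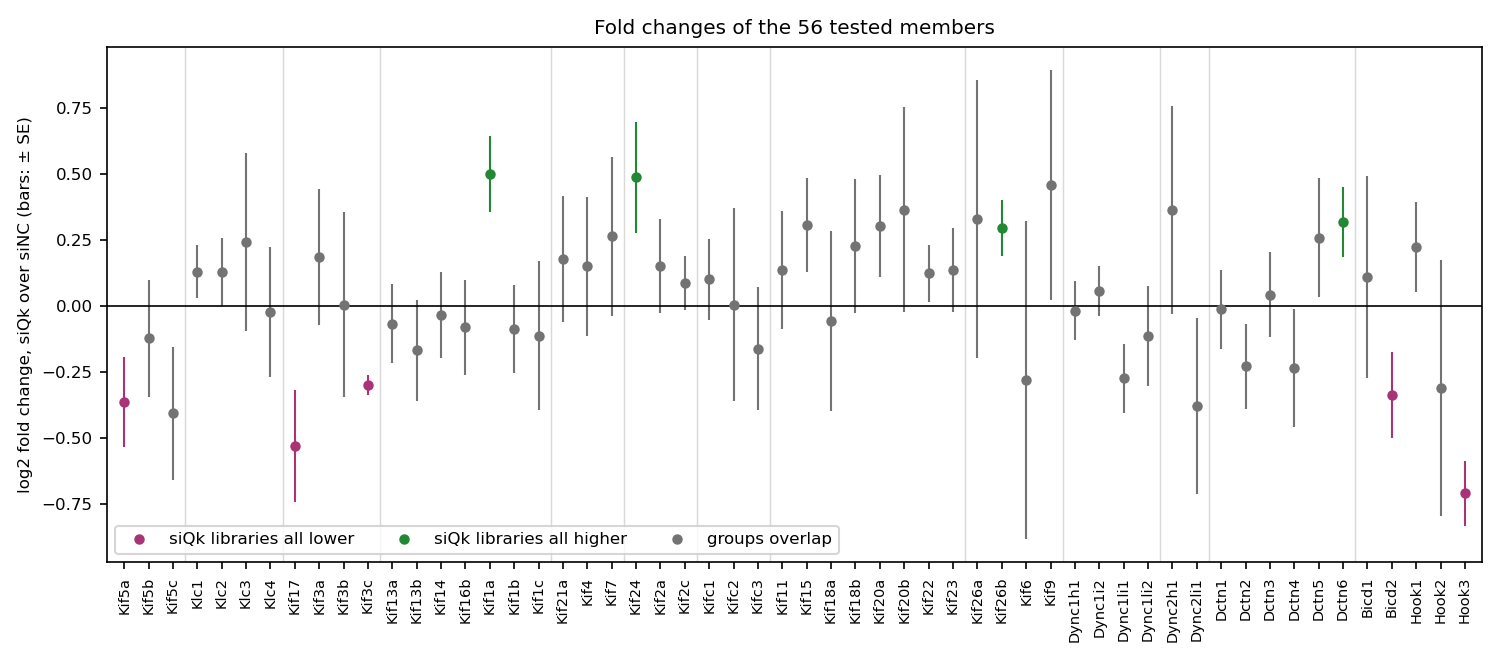
Log2 fold change of siQk over siNC for the 56 tested members, grouped by role class in the order of the text, with bars of ± SE from 3 libraries per group. The values run from -0.71 (Hook3) to 0.50 (Kif1a); coloured points mark the 5 members whose siQk libraries all lay lower and the 4 whose siQk libraries all lay higher.

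Levels of the members differed widely. Mean levels over the 6 libraries were above 50 RPKM for 7 members, between 10 and 50 RPKM for 25, between 1 and 10 RPKM for 21 and under 1 RPKM for 9. The 7 most abundant were Dctn2, Dctn3, Dctn6 and Dctn5 of dynactin (270.6, 104.1, 87.3 and 71.5 RPKM), the spindle motor Kif22 (97.3 RPKM) and the dynein subunits Dync1li1 and Dync1h1 (61.9 and 51.8 RPKM). Dctn3 and Kif22, neighbours in that order, overlapped in range, at 79.9 to 118 and 88.9 to 118 RPKM. The next 3 were the ubiquitous kinesin-1 Kif5b at 49.6 RPKM, the cytokinesis motor Kif20a at 40.9 RPKM and the light chain Klc1 at 39.4 RPKM. Transport motors and division motors were thus present side by side at similar levels per length. Not tested were 6 members. Dync1i1 (a dynein intermediate chain found mainly in neurons), Kif2b, Kif12 and Kif19a were listed at 0 in every library, where 3 counts would have given at most 0.0307 RPKM. Kif21b reached 0.0227 RPKM (9 counts) and Kif27 reached 0.157 RPKM (28 counts). A listing at 0 may also come from the counting, since Gapdh and Ppia, which every cell uses and which have many near-identical copies in the genome, had as few as 241 and 329 counts in a library where Actb had at least 87950.

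**Figure D2:**
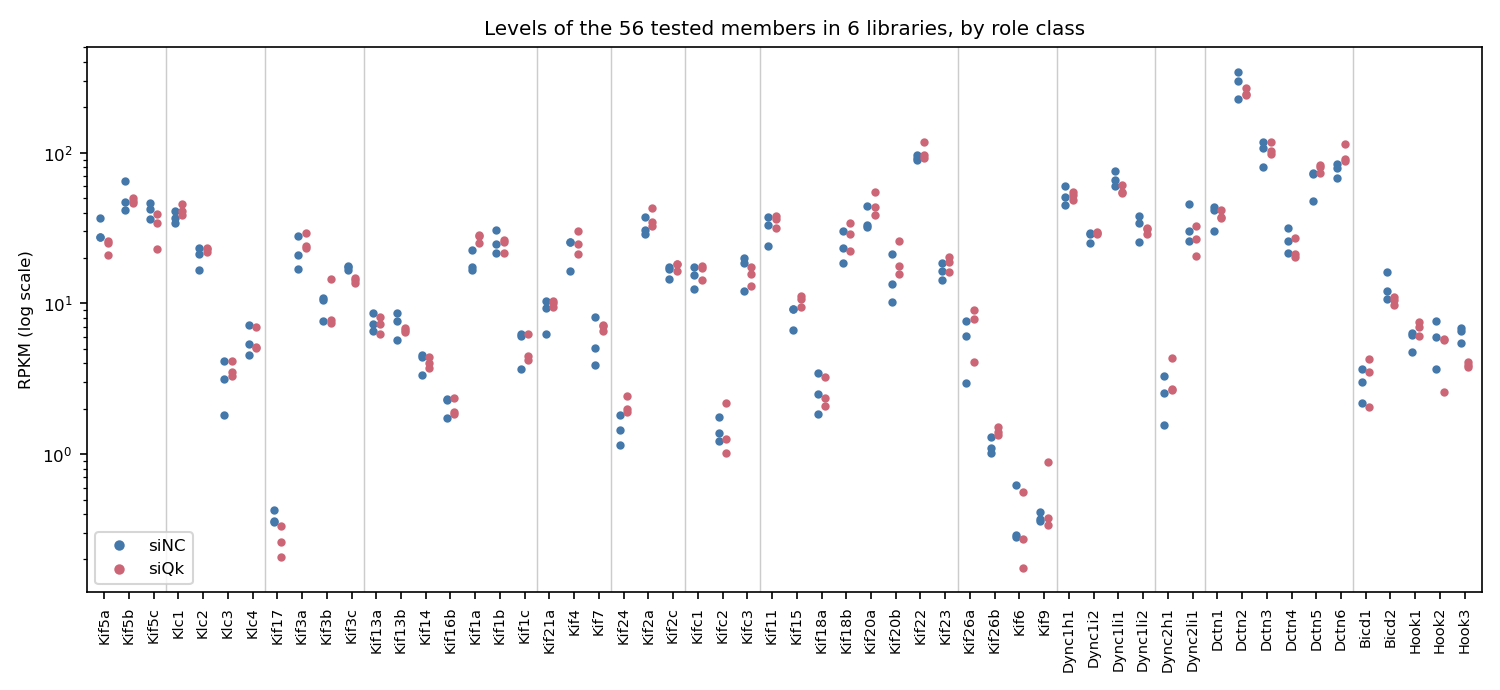
RPKM on a log axis for the 56 tested members in each of the 6 libraries (blue siNC, red siQk), grouped by role class. Dctn2 lies highest, with a mean of 270.6 RPKM, Kif6, Kif9 and Kif17 lie lowest, and for most members the groups overlap.

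Kinesin-1 carries mitochondria, vesicles and neurofilaments along the axon. All 3 of its heavy chains had a fold change below 0, with a median of -0.37, and none passed the call. Kif5a (Entrez 16572, GRCm38 chromosome 10, 127225696 to 127263348, minus strand), the neuronal heavy chain linked to spastic paraplegia and ALS, measured 36.6, 27.4 and 27.4 RPKM in siNC and 26.1, 20.9 and 24.99 RPKM in siQk. The siQk libraries all lay below the siNC libraries, with siNC replicate 1 far above the other controls. The log2 fold change was -0.37 (SE 0.17, unadjusted edgeR p of 0.0621), and it was -0.22 without siNC replicate 1. Kif5c, also neuronal, measured 36.4, 46.6 and 42.4 RPKM in siNC and 22.9, 39.2 and 34.1 RPKM in siQk. The groups overlapped, with siQk replicate 1 lowest of all, and the fold change of -0.41 (SE 0.25, unadjusted edgeR p of 0.078) was -0.22 without that library. Kif5b, the form found in all tissues, was at 51.1 ± 12.5 RPKM in siNC against 48.0 ± 1.91 RPKM after knockdown (SD, n = 3), and its fold change of -0.12 turned to 0.12 without siNC replicate 3, the library with the highest value (65.2 RPKM).

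Summed over the 3 heavy chains, kinesin-1 stood at 114, 121 and 135 RPKM in siNC and at 97.1, 106 and 109 RPKM in siQk. The sums did not overlap (123 ± 10.6 against 104 ± 6.19 RPKM, SD, n = 3, exact permutation test, two-sided, p = 0.1, the lowest value possible with 3 libraries a group). The same was true after TMM scaling, with 114 to 141 in siNC and 96.4 to 109 in siQk. The median over the class was -0.22 without siQk replicate 1 and between -0.41 and -0.22 over all libraries left out singly. Kif5b made up 36.2% to 48.3% of the sum in siNC and 43.4% to 49.5% in siQk, so the 3 heavy chains shared the transcript pool without one dominating. Of the light chains, which link kinesin-1 to cargo, 3 of 4 were above 0, with a median of 0.13. That median was 0.0066 without siNC replicate 3 and -0.04533 without the pair of libraries that stood apart. Klc1 was at 37.3 ± 3.57 RPKM in siNC and 41.5 ± 3.58 RPKM in siQk, with a fold change of 0.13 (SE 0.10, unadjusted edgeR p of 0.412) that was 0.06 without siQk replicate 1. Klc2 was at 20.4 ± 3.54 and 22.6 ± 0.576 RPKM, also at 0.13 but at 0.02 without siNC replicate 3, and 10.6% of its exon bases overlap an antisense gene.

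Kinesin-2 motors carry membrane and ciliary cargo as a heterotrimer of Kif3a with Kif3b or Kif3c, while Kif17 works as a homodimer. Kif3c (Entrez 16570, GRCm38 chromosome 12, 3365132 to 3406494, plus strand) measured 17.4, 17.8 and 16.6 RPKM in siNC and 14.8, 13.6 and 14.3 RPKM in siQk. Both groups were tight and did not overlap. The fold change was -0.30 with an SE of 0.04, the smallest SE among the non-overlapping members, at an unadjusted edgeR p of 0.0583, and it stayed between -0.33 and -0.27 with any 1 library left out. The reads were counted without strand and 35.3% of the exon bases of Kif3c overlap the antisense gene 1110002L01Rik, so the 2 transcripts cannot be told apart there. Kif3a, its partner, was at 21.97 ± 5.55 RPKM in siNC and 25.6 ± 3.44 RPKM in siQk, with a fold change of 0.19 (SE 0.26) that was 0.0067 without siNC replicate 2 and 0.43 without siNC replicate 3. Kif3c made up 29.9% to 39.4% of the summed RPKM of Kif3a, Kif3b and Kif3c in siNC and 23.7% to 32.7% in siQk, and these ranges overlapped. Kif17, which carries glutamate receptors in dendrites, was near the detection range, at 0.353, 0.358 and 0.425 RPKM in siNC and 0.261, 0.331 and 0.207 RPKM in siQk. Its siQk values all lay lower, on 36 to 69 counts per library, with a fold change of -0.53 (SE 0.21, unadjusted edgeR p of 0.144).

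Kinesin-3 motors carry synaptic vesicle precursors and dense core vesicles. Kif1a was the 1 tested member of the family with a fold change above 0, and the other 6 lay between -0.17 and -0.03. Kif1a (Entrez 16560, GRCm38 chromosome 1, 93015464 to 93101951, minus strand), the neuronal motor for synaptic vesicle precursors, measured 22.5, 16.6 and 17.4 RPKM in siNC and 28.4, 27.8 and 25.3 RPKM in siQk. All siQk libraries lay above all siNC libraries, with siNC replicate 1 nearest to them, and the means were 18.9 ± 3.20 and 27.2 ± 1.64 RPKM (SD, n = 3), or 144% of control. The fold change was 0.50 (SE 0.14) at an unadjusted edgeR p of 0.0126 and an adjusted p of 0.9996. It ran from 0.39 to 0.64 with any 1 library left out, and the unadjusted p was 0.0514 without siNC replicate 2. Without the pair of libraries that stood apart it was 0.46 (unadjusted edgeR p of 0.0428). No other annotated gene overlaps its exons.

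Kif1b, which carries mitochondria and synaptic vesicle precursors, was at 25.6 ± 4.59 RPKM in siNC and 24.5 ± 2.62 RPKM in siQk, with a fold change of -0.09 that was 0.03 without siNC replicate 2. Kif1c, a motor for dense core vesicles and integrins, was at 5.33 ± 1.42 and 4.99 ± 1.14 RPKM, with a fold change of -0.11 that was 0.01 without siNC replicate 1, -0.31 without siQk replicate 2 and -0.50 without the pair of libraries that stood apart (unadjusted edgeR p of 0.0112). Within the sum of the Kif1 paralogs, Kif1a took 44.7%, 31.2% and 38.1% in the siNC libraries and 48.7%, 50.04% and 45.1% in the siQk libraries. Summed over the 7 kinesin-3 motors, the level was 67.8, 76.4 and 68.3 RPKM in siNC and 77.1, 77.0 and 75.8 RPKM in siQk. These sums overlapped, and after TMM scaling siQk lay higher without overlap (67.8 to 74.97 against 75.6 to 76.5). Within the Kif1 sums the lowest siQk share exceeded the highest siNC share by less than 1 percentage point. In siNC replicates 2 and 3 and siQk replicate 3 Kif1b was the most abundant of the 3 paralogs, and in siNC replicate 1 and siQk replicates 1 and 2 it was Kif1a.

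**Figure D3:**
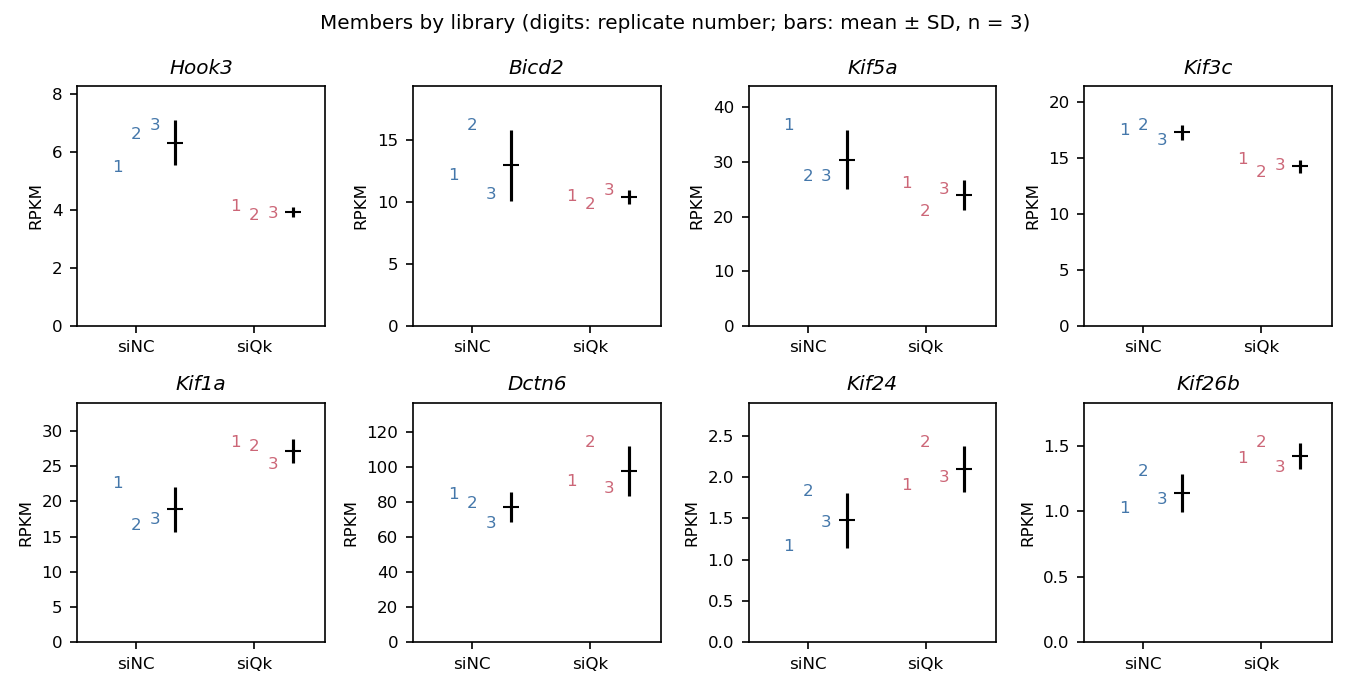
RPKM of 8 members in each library, with the replicate number as the plotting symbol and the mean ± SD of 3 libraries beside it; each axis starts at 0. Hook3, Kif5a and Kif3c lie lower in all siQk libraries and Kif1a, Dctn6, Kif24 and Kif26b higher, while for Bicd2 siNC replicate 3 (10.7 RPKM) lies below siQk replicate 3 (10.9 RPKM) on this scale.

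Among the kinesin-4 group, 3 of 5 members were tested and all 3 had a fold change above 0, with a median of 0.18 that was -0.01 without siNC replicate 1. Kif21a, a motor of developing axons, was at 8.65 ± 2.15 RPKM in siNC and 9.98 ± 0.456 RPKM in siQk, with a fold change of 0.18 that was -0.01 without siNC replicate 1. Kif4, a chromosome arm and midzone motor, was at 22.6 ± 5.24 and 25.5 ± 4.62 RPKM, with a fold change of 0.15 that was -0.04 without siNC replicate 1, and 15.1% of its exon bases overlap Pdzd11. Kif7, a regulator of Hedgehog signalling at the ciliary tip, was at 5.70 ± 2.19 and 6.94 ± 0.340 RPKM with a fold change of 0.26 (SE 0.30) that ran from 0.07 without siNC replicate 3 to 0.61 without siNC replicate 1, and 19.1% of its exon bases overlap an antisense gene. Each of these differences was smaller than its own SE.

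Kinesin-13 motors take microtubules apart rather than walking on them. Kif24, which removes microtubule ends at the mother centriole and restrains cilium growth, measured 1.15, 1.82 and 1.45 RPKM in siNC and 1.89, 2.42 and 1.99 RPKM in siQk. The siQk values all lay higher, but siNC replicate 2 came within 0.1 RPKM of the nearest. Its fold change was 0.49 (SE 0.21, unadjusted edgeR p of 0.0616), and p was 0.182 without siNC replicate 1. Kif2a, which prunes axon branches, was at 32.3 ± 4.43 and 36.7 ± 5.25 RPKM, with a fold change of 0.15 that was 0.03 without siQk replicate 2, and shares 19.2% of its exon bases with Dimt1. Kif2c, which corrects kinetochore attachments, was at 16.3 ± 1.59 and 17.6 ± 1.11 RPKM, with a fold change of 0.09 that was 0.0043 without siNC replicate 1. The minus-end directed kinesin-14 motors had a median of 0.0046, which ran from -0.11 to 0.11 with any 1 library left out. Kifc1, which focuses spindle poles, was at 15.1 ± 2.59 and 16.4 ± 1.82 RPKM with a fold change of 0.10 that was -0.05 without the pair of libraries that stood apart, and 34.6% of its 75-base stretches also occur in Kifc5b. Kifc3, a motor of adherens junctions and the Golgi, was at 16.9 ± 4.15 and 15.3 ± 2.22 RPKM (fold change -0.16, SE 0.23), and the fold change ran from -0.33 without siNC replicate 3 to -0.03 without siNC replicate 1, and was -0.43 without the pair of libraries that stood apart (unadjusted edgeR p of 0.03). In the divergent kinesin-11 family, Kif26b measured 1.02, 1.30 and 1.09 RPKM in siNC and 1.40, 1.52 and 1.33 RPKM in siQk. The groups did not overlap, and the fold change was 0.29 (SE 0.11, unadjusted edgeR p of 0.19). Its paralog Kif26a, which holds back growth factor signalling in enteric neurons, was at 5.54 ± 2.38 and 7.03 ± 2.60 RPKM, with a fold change of 0.33 and an SE of 0.53, which was 0.04 without siNC replicate 3 and 0.63 without siNC replicate 1.

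The motors of the spindle and of cytokinesis were examined across families as a set of 12 (Kif4, Kif11, Kif14, Kif15, Kif18a, Kif18b, Kif20a, Kif20b, Kif22, Kif23, Kif2c and Kifc1), all of which were tested. Of these 10 had a fold change above 0 and 2 below, with a median of 0.14, where the other 44 tested members had 21 above and 23 below and a median of -0.02. The median of the 44 ran from -0.04 to 0.03 with any 1 library left out. The median of the 12 was 0.0608 without siQk replicate 2 and 0.0779 without siNC replicate 1 (8 above 0), and 0.24 without siNC replicate 3 and 0.22 without siQk replicate 1 (12 above 0). None of the 12 had an unadjusted p under 0.05 or groups that did not overlap after TMM scaling. On the RPKM scale those of Kif15 did not overlap (6.62 to 9.18 in siNC against 9.46 to 11.2 in siQk). Kif22, a chromosome arm motor, measured 96.1, 91.8 and 88.9 RPKM in siNC and 97.0, 118 and 92.0 RPKM in siQk. Only siQk replicate 2 exceeded the others clearly, and the fold change of 0.12 (SE 0.11) was 0.0097 without that library. Kif20a, which carries the chromosomal passenger complex to the midzone, measured 32.9, 44.1 and 31.9 RPKM in siNC and 38.4, 54.6 and 43.6 RPKM in siQk, again highest in siQk replicate 2. Its fold change of 0.30 (SE 0.19, unadjusted edgeR p of 0.131) was 0.15 without that library and 0.0980 without the pair of libraries that stood apart, and 29.3% of its exon bases overlap Cdc23. Kif15, which helps to hold the bipolar spindle, had the smallest p of the set, at 8.30 ± 1.46 RPKM in siNC and 10.5 ± 0.906 RPKM in siQk, with a fold change of 0.31 (SE 0.18, unadjusted edgeR p of 0.125) that was 0.16 without siNC replicate 1.

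Levels of the spindle set varied between libraries of the same group. The summed level was 259, 306 and 289 RPKM in the siNC libraries and 288, 376 and 315 RPKM in the siQk libraries. The groups overlapped, with siNC replicate 1 lowest and siQk replicate 2 highest. Markers of mitosis that are no motors (18 genes, among them Mki67, Top2a, Cdk1 and Plk1) summed to 915, 1146 and 1085 RPKM in siNC and to 1056, 1312 and 1173 RPKM in siQk, with the same libraries at the ends, and 15 of the 18 had a fold change above 0. The median deviation of the spindle set from the siNC mean, on the log2 scale, was -0.25, 0.09 and 0.19 in the siNC libraries and -0.03, 0.33 and 0.19 in the siQk libraries, and that of the mitosis markers was -0.19, 0.07 and 0.15 and then 0.00, 0.30 and 0.17. Library by library the 2 series differed by less than 0.1. Their points share libraries and scaling, and what part the share of dividing cells has in the values of the spindle motors was not tested.

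**Figure D4:**
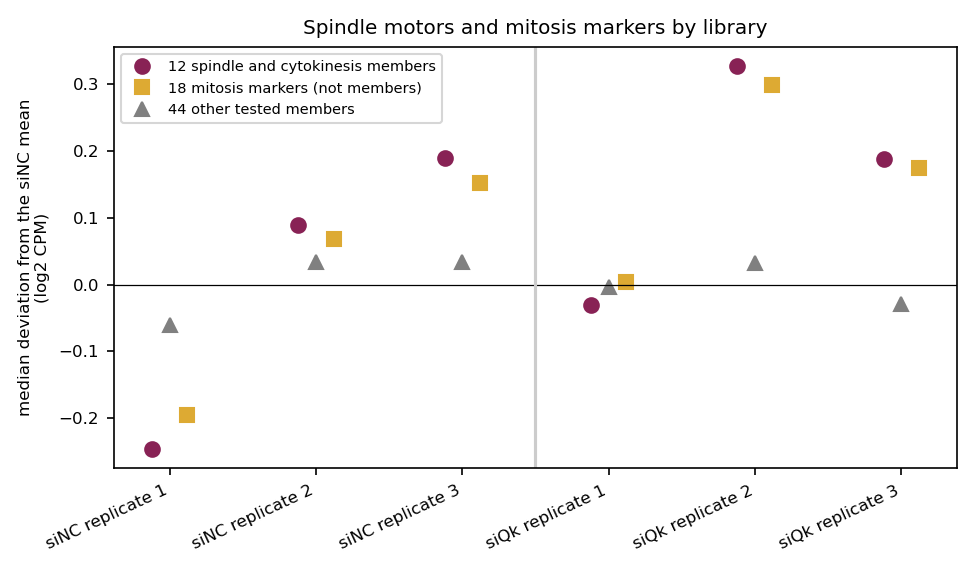
Median deviation from the siNC mean, in log2 CPM, of the 12 spindle and cytokinesis members, of 18 mitosis markers and of the 44 other tested members, in each library. The first pair of lists runs together from siNC replicate 1 (-0.25 and -0.19) to siQk replicate 2 (0.33 and 0.30), while the other members stay near 0.

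The promoters of these motors shared a sequence feature that the choice by symbol did not use. The CHR (cell cycle genes homology region), TTTGAA, binds the MuvB complex that keeps mitotic genes silent in resting cells and turns them on before mitosis, and the NF-Y factor binds CCAAT boxes. RefSeq windows of GRCm38.p6, from 250 bases before to 50 after each transcription start, were at hand for 48 of the 62 members. TTTGAA stood on either strand in 10 of the 11 spindle and cytokinesis members with a window (90.9%), in 4 of 37 other members (10.8%) and in 20.2% of 27025 genes. Within 30 bases of the start it stood in 8 of the 11 (72.7%), 1 of the 37 (2.70%) and 3.66% of genes. CCAAT on either strand was found in 7 of the 11 (63.6%), 16 of the 37 (43.2%) and 41.1% of genes, and both motifs in 7 of the 11, 2 of the 37 and 7.97% of genes. Those 8 were Kif4, Kif11, Kif15, Kif18b, Kif20b, Kif22, Kif23 and Kifc1. The 8 windows below, each from 70 bases before to 30 bases after the start, are shown because they carry the feature near the start. Capitals mark TTTGAA and CCAAT or their reverse complements TTCAAA and ATTGG. A match is a description of letters and not of binding.

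Kif11 promoter, chr19:37376312-37376411, plus strand: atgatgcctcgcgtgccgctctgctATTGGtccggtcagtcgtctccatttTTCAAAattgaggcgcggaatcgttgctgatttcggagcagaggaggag
Kif15 promoter, chr9:122951011-122951110, plus strand: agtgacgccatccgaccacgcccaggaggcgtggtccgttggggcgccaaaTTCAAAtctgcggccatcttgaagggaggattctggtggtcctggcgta
Kif22 promoter, chr7:127042391-127042490, minus strand: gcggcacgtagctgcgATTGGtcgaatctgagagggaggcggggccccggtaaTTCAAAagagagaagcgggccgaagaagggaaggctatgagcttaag
Kif4 promoter, chrX:100625995-100626094, plus strand: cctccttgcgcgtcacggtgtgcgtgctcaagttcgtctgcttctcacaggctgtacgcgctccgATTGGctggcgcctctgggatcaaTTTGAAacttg
Kif18b promoter, chr11:102925095-102925194, minus strand: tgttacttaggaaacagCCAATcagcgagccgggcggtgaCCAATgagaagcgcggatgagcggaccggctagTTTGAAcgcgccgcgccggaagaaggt
Kif23 promoter, chr9:61946770-61946869, minus strand: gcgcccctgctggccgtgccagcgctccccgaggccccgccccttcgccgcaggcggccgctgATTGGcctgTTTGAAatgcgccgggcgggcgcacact
Kifc1 promoter, chr17:33890604-33890703, minus strand: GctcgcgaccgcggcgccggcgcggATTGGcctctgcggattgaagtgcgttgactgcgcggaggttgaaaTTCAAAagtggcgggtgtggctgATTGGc
Kif20b promoter, chr19:34922288-34922387, plus strand: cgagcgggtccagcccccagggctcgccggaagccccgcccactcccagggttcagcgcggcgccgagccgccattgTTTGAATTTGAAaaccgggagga

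In Kif11, Kif15 and Kif22 TTTGAA lay on the reverse strand 19, 19 and 17 bases before the start. In Kif4, Kif18b, Kif23 and Kifc1 (reverse strand) it began 20, 4, 3 and 2 bases after it. In Kif20b it occurred as a direct repeat, beginning 8 and 14 bases after the start. In Kif11, Kif22, Kif4, Kif18b, Kif23 and Kifc1 a CCAAT box lay upstream of it in the printed window, and the capital G that opens the Kifc1 line is the end of another. The axonal kinesin-1 Kif5c is shown over the same distance for contrast, and holds neither motif.

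Kif5c promoter, chr2:49619216-49619315, plus strand: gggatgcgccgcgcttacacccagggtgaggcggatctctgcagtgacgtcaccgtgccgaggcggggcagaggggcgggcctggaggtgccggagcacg

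**Figure D5:**
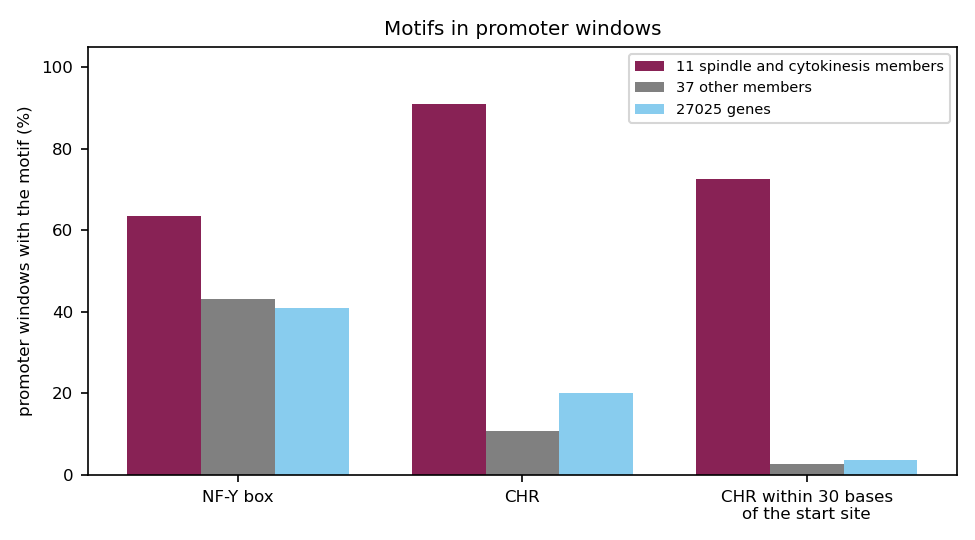
Percent of promoter windows that hold the NF-Y box, the CHR anywhere in the window, or the CHR within 30 bases of the start site, for 11 spindle and cytokinesis members, 37 other members and 27025 genes. The CHR near the start stands in 72.7% of the first group, 2.70% of the second and 3.66% of all genes.

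Cytoplasmic dynein 1 is the motor of retrograde transport. Of its 4 tested subunits 3 had a fold change below 0, with a median of -0.07 that ran from -0.15 to -0.02 with any 1 library left out. Dync1li1, a light intermediate chain that holds the adaptors, measured 65.8, 60.2 and 75.5 RPKM in siNC and 55.1, 60.8 and 53.97 RPKM in siQk. The groups met at siNC replicate 2 and siQk replicate 2, and the fold change was -0.28 (SE 0.13, unadjusted edgeR p of 0.116), or -0.15 without siNC replicate 3. The heavy chain Dync1h1, which holds the motor domain, was at 51.8 ± 7.62 RPKM in siNC and 51.9 ± 3.22 RPKM in siQk. Its fold change of -0.02 (SE 0.11) turned sign with the scaling, and ran from -0.09 to 0.07 with any 1 library left out. The subunits summed to 171, 179 and 187 RPKM in siNC and to 169, 170 and 167 RPKM in siQk. The sums did not overlap, by a margin of 1.3 RPKM, at the lowest possible p of the two-sided exact permutation test (0.1), and the means were 179 ± 7.76 and 169 ± 1.75 RPKM. Dynein 2, the retrograde motor of cilia, showed no common direction: Dync2h1 was at 2.46 ± 0.854 and 3.24 ± 0.954 RPKM (fold change 0.36, SE 0.40), and Dync2li1 at 33.9 ± 10.4 and 26.7 ± 5.98 RPKM (fold change -0.38, SE 0.33). Without siQk replicate 2 the value of Dync2h1 was 0.0951, and for Dync2li1 it was -0.07 without siNC replicate 3 and 0.09 without the pair of libraries that stood apart.

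Dynactin joins dynein to cargo and lengthens its runs. Of the 6 subunits 3 lay above 0 and 3 below, with a median of 0.01 that ran from -0.07 to 0.06 with any 1 library left out. Dctn6 (Entrez 22428, GRCm38 chromosome 8, 34090420 to 34108796, minus strand), a subunit of the pointed-end complex, measured 84.1, 79.3 and 67.6 RPKM in siNC and 91.3, 114 and 87.6 RPKM in siQk. All siQk values lay above all siNC values, with siQk replicate 2 highest. The fold change was 0.32 (SE 0.13, unadjusted edgeR p of 0.0841), and it was 0.14 without the pair of libraries that stood apart. An unstranded overlap with a long non-coding gene covers 11.8% of its exon bases. Dctn2, the shoulder subunit dynamitin, was at 290.2 ± 58.1 RPKM in siNC and 251 ± 14.5 RPKM in siQk, with a fold change of -0.23 (SE 0.16) that ran from -0.36 without siNC replicate 3 to -0.095 without siNC replicate 1. Dctn1, the p150Glued subunit that binds microtubules, was at 38.5 ± 7.23 and 38.6 ± 2.64 RPKM, with a fold change of -0.01 whose sign turned in 4 of the 6 fits with 1 library left out. Dctn3 was at 101.8 ± 19.7 and 106 ± 10.6 RPKM, with a fold change of 0.04 that was -0.16 without the pair of libraries that stood apart.

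Activating adaptors bridge dynein and dynactin and switch on processive movement. Of the 5 members 3 lay below 0 and 2 above, with a median of -0.31 that ran from -0.44 without siNC replicate 3 to -0.02 without siQk replicate 2. Hook3 (Entrez 320191, GRCm38 chromosome 8, 26021421 to 26119224, minus strand), an adaptor for dynein on endosomes and the Golgi that can also bind the kinesin KIF1C, measured 5.44, 6.60 and 6.88 RPKM in siNC and 4.11, 3.8 and 3.87 RPKM in siQk. Every siQk library lay below every siNC library, and the 3 siQk values were close together. The means were 6.31 ± 0.765 and 3.93 ± 0.164 RPKM (SD, n = 3), or 62.3% of control, on 2291 to 4013 counts per library.

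The log2 fold change of Hook3 was -0.71 (SE 0.12), the farthest from 0 among the 56 members, at an unadjusted edgeR quasi-likelihood p of 0.00168 and an adjusted p of 0.9996. It ran from -0.81 to -0.61 with any 1 library left out, where p was at most 0.00937, and was -0.59 (unadjusted p of 0.00681) without the pair of libraries that stood apart. DESeq2 gave -0.72 with an adjusted p of 0.0961, which passes the same cutoffs, as did 19 of 12664 genes (0.15%) in that test, and the edgeR exact test gave an adjusted p of 0.224. The call of Hook3 thus rested on the tool. Hook1 was at 5.76 ± 0.882 RPKM in siNC and 6.85 ± 0.715 RPKM in siQk, with a fold change of 0.22 (SE 0.17) that was 0.0968 without siNC replicate 1 and 0.42 without the pair of libraries that stood apart (unadjusted p of 0.0463), and the share of Hook3 in the summed Hook RPKM was 30.5%, 35.3% and 40.6% in siNC and 23.6%, 30.5% and 23.4% in siQk. The highest siQk share and the lowest siNC share were the same to 1 decimal. Hook1 took 26.7% to 37.8% in siNC and 42.1% to 48.9% in siQk.

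Bicd2 (Entrez 76895, GRCm38 chromosome 13, 49341585 to 49387026, plus strand), an adaptor for Rab6 vesicles and the nuclear envelope that is mutated in a lower extremity form of spinal muscular atrophy, measured 12.1, 16.2 and 10.7 RPKM in siNC and 10.5, 9.82 and 10.9 RPKM in siQk. On this scale siQk replicate 3 lay just above siNC replicate 3, and after TMM scaling the groups did not overlap. The fold change was -0.34 (SE 0.16, unadjusted edgeR p of 0.086), and it was -0.18 without siNC replicate 2, the library with the highest value. Bicd2 made up 77.9% to 84.7% of the summed Bicd RPKM in siNC and 71.2% to 82.8% in siQk. The sum over the 5 adaptors was 30.7 to 38.6 RPKM in siNC and 24.3 to 32.1 RPKM in siQk, which overlapped, although the groups separated by 0.1 RPKM after TMM scaling (32.0 to 37.8 against 23.9 to 31.9).

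Because Quaking proteins bind RNA at elements such as ACUAAC and ACUAAU, the 3′ UTRs of the members were searched for ACTAAC or ACTAAT (DNA letters, strand of the transcript) in the principal GENCODE M21 transcript. Such a motif was present in 19 of 56 tested members (33.9%) and in 31.3% of 12034 genes, at 0.406 and 0.333 sites per kilobase, so the members as a whole were near the background. Hook3 and Bicd2 had the most sites of all members, 5 each, a number reached or passed by 0.922% of genes. Those 111 genes had a median fold change of -0.0037. The Hook3 UTR is 10469 bases long and holds 0.478 sites per kilobase, and the Bicd2 UTR is 3667 bases long and holds 1.36. The sites are shown because they belong to the adaptors just described. Each line gives 30 bases of the 3′ UTR with the motif in capitals.

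Hook3 3′ UTR, chr8:26030486-26030515, minus strand: aaaagacaaataACTAACtcaactttactg
Hook3 3′ UTR, chr8:26028757-26028786, minus strand: gaaatgaagataACTAATacacttatatta
Hook3 3′ UTR, chr8:26026341-26026370, minus strand: aatttgtcagtcACTAACttgcttactata
Hook3 3′ UTR, chr8:26025542-26025571, minus strand: tgaaagaccaaaACTAATttctaattgtgt
Hook3 3′ UTR, chr8:26025510-26025539, minus strand: aggtgagtattaACTAACcatataatctat

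Bicd2 3′ UTR, chr13:49383381-49383410, plus strand: cgcttcacctcaACTAACccagctgcagca
Bicd2 3′ UTR, chr13:49383432-49383461, plus strand: gctcctaacgtgACTAACgcacagagggcg
Bicd2 3′ UTR, chr13:49384855-49384884, plus strand: cctcctctgccaACTAATgtgctcgcgcac
Bicd2 3′ UTR, chr13:49385818-49385847, plus strand: gaagcatgactgACTAACagaattttatac
Bicd2 3′ UTR, chr13:49386401-49386430, plus strand: ttgcttggtgtaACTAATcactgttaattt

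In Hook3 the last pair of sites lies 32 bases apart, and each is followed within 20 bases by a further TAAC or TAAT, the arrangement described for high-affinity Quaking sites. That paired form was present in 8 of 56 members (14.3%) and 7.80% of genes. Its 8 members were Hook3, Bicd2, Bicd1, Kif13b, Kif16b, Kif2a, Dync1li2 and Dctn4. The fold change was below 0 in 6 of the 8, with a median of -0.14, and in 19 of the 48 members without it, with a median of 0.09. The median of the 48 ran from 0.037 to 0.11 with any 1 library left out. The median UTR was 3232 bases in the 8 and 654.5 bases in the 48, so motif and UTR length cannot be told apart. For the single motif the fold change was below 0 in 9 of 19 members with a site and in 16 of 37 without. The median of the 8 was 0.0051 without siNC replicate 3 (4 below 0), -0.30 without siNC replicate 1 (7 below 0) and 0.0289 without the pair of libraries that stood apart (3 below 0). Over all genes the medians with and without the paired form were -0.0020 and 0.0026. Kif15, with 3 sites (the last pair overlapping) in a UTR of 606 bases, had the highest density among the members with 3 or more and a fold change of 0.31. Kif1a had no site in its UTR. The matches are letters in an annotated UTR, binding was not measured in these libraries, and sites in introns were not analysed here.

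The other genes of the same machinery gave a similar background. The list held 52 genes, among them dynein light chains, Lis1 (Pafah1b1) and its partners, Arp1 and capping protein, and kinesin adaptors such as Trak1 and the JIP proteins. Of 47 tested, 26 lay above 0 and 21 below, with a median of 0.03 that ran from -0.05 to 0.05 with any 1 library left out, and 1 had an unadjusted p under 0.05. That gene was Spdl1, listed under the older symbol Ccdc99, the adaptor Spindly that brings dynein to kinetochores. It measured 17.5, 19.7 and 15.7 RPKM in siNC and 23.6, 25.2 and 23.8 RPKM in siQk. The groups did not overlap, and the fold change was 0.43 (SE 0.07, unadjusted edgeR p of 0.0206, adjusted p of 0.9996). Among the other cytoskeletal motors, 17 of 24 myosins were tested, with 5 above 0 and 12 below and a median of -0.10 that was 0.0038 without siQk replicate 2. Axonemal dynein heavy chains, which drive cilia and flagella, had 5 of 11 tested and a median of -0.17 that was 0.04 without siNC replicate 2.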

How the data were processed

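Poly-A RNA from NSC-34 cells was made into libraries with an unstranded kit and sequenced as pairs of 75-base reads. The authors aligned them with OLego and counted them per gene with Quantas (mm10 per the labels), and deposited expected counts, of which 21.9% to 22.9% are not whole, with exon lengths and RPKM values. The deposited RPKM values equal the count scaled to the deposited exon length and the library total, with no other scaling. Counts were rounded, scaled by TMM and filtered at a mean log2 CPM above 0. All 6 libraries entered one fit with edgeR 4.0.16 (R 4.3.3), tested by quasi-likelihood with no further term. SEs come from TMM-scaled log2 CPM (prior count 2). The edgeR p-values set a difference against the spread between 3 libraries per group, which may include that between siRNAs. That spread is moderated by information shared across genes, so p need not follow the SE of a single gene. Permutation tests use the 20 arrangements of 3 against 3. Depth leaves counting error small beside the spread between libraries. The script was tested on simulated data. Alternatives were DESeq2 1.42.0 (test and size factors), the edgeR exact test, library totals, other filters, a replicate block and each library left out. Named are the members with an unadjusted p under 0.05, the 2 most abundant and the one with the smallest p of each class, and disease genes. Any other member was named after its values were seen. Members and lists were chosen with earlier results of these data known. Positions come from GENCODE M21 and promoters from RefSeq, both GRCm38. Exon overlap of Kifc3 is not reported here.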

Additional observations from a re-analysis of the deposited data

How the results depend on the processing

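Under 14 alternatives for each of 34 named members (476 refits), 455 kept direction and side of the threshold, 1 passed it and 20 turned sign in 10 members. The number of genes called was 5 by the exact test of edgeR, 19 by DESeq2 and 0 to 1 with any 1 library left out. The number of members called was 1 in DESeq2, Hook3 at -0.72, and 0 in every other fit. Qk ran from -3.19 to -2.67 with any 1 library left out, and at -3.09 without siNC replicate 1 it no longer passed. Members at an unadjusted p under 0.05 numbered 2 to 6 with any 1 library left out, with 6 without siNC replicate 3 (Bicd2, Dctn2, Hook3, Kif1a, Kif20b and Kif3a, beside 4.43% of all genes against 2.89% with all libraries), and 6 without that library and siQk replicate 2 (Hook1, Hook3, Kif1a, Kif1c, Kif20b and Kifc3, beside 6.19% of all genes), an alternative chosen after seeing the data. That last fit gave opposite signs for Kif5b (0.16), Kifc1 (-0.0541), Dync2li1 (0.0865) and Dctn3 (-0.16), and scaling by library totals did so for Dync1h1 (0.0033) and Dctn1 (0.0067). Signs also turned with 1 library left out for Kif5b (-0.26 to 0.12), Kif1b (-0.20 to 0.0288), Kif4 (-0.0365 to 0.28), Kif21a (-0.0148 to 0.36), Kifc1 (-0.0034 to 0.19), Dync1h1 (-0.0900 to 0.0705), Dctn3 (-0.0841 to 0.14), Kif1c (-0.31 to 0.0147) and Dctn1 (-0.14 to 0.0544). With any 1 library left out the class medians ran from -0.41 to -0.22 for kinesin-1, 0.0598 to 0.37 for kinesins 9 and 11, -0.44 to -0.02 for the adaptors, 0.0066 to 0.22 for the light chains, -0.32 to -0.08 for kinesin-2, -0.17 to 0.02 for kinesin-3, -0.01 to 0.28 for kinesin-4, 0.06 to 0.30 for kinesin-13, 0.08 to 0.30 for the spindle class and -0.17 to 0.29 for dynein 2. Except where a construction shows it (fewer libraries), the cause was not tested.

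Replicate numbers are shared by siNC and siQk, but same-numbered libraries deviated together with correlations of 0.213, 0.018 and -0.17, so the numbers were not taken as a pairing. With the replicate block 1 gene and 0 members were called, Qk was at -2.96, and 3 members had an unadjusted p under 0.05 (Hook3, Kif1a and Kif5c, beside 3.54% of all genes). Precision is limited by 3 libraries per group, and for Kif17 and the members at 0 by counts. Of all pairs of libraries, siQk replicates 1 and 3 had the closest counts (chi-square per degree of freedom of 24.4, next pair 65.4). The siQk libraries may therefore not be equally independent, which was not tested.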
